A study of Saccharomyces cerevisiae x Saccharomyces kudriavzevii and Saccharomyces cerevisiae with 12 samples.

Results

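Gene expression of the wine hybrid VIN7 was set against that of Lalvin T73, a S. cerevisiae wine strain, in fermentations at 28 °C on 3 of the 12 arrays of the study, the arrays whose titles name VIN7 and 28 °C (replicates A, B and C). Both strains fermented Tempranillo must, and cells were taken at the beginning of stationary phase. VIN7 is a hybrid of S. cerevisiae and S. kudriavzevii and T73, the reference, has no S. kudriavzevii genome. Of the 6178 ORFs in the deposited table, 6169 had a value on 2 or more of the 3 arrays and 5783 had a value on all 3. The other 9 arrays compared VIN7 at 12 °C, and the hybrid Lalvin W27 at both temperatures, with T73, on 3 arrays each.

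VIN7 is an allotriploid, a cell with a diploid S. cerevisiae genome and a haploid S. kudriavzevii genome. For most genes a transcript can therefore come from alleles of either species. The study describes chromosome III of VIN7 as without its S. kudriavzevii copy, and parts of chromosome VII as carrying S. cerevisiae alleles alone. S. cerevisiae strains grow and ferment well in warm musts, whereas S. kudriavzevii and its hybrids are known for fermenting well in the cold. Each array carried PCR-amplified ORFs of the S. cerevisiae strain S288c. It measured the sum of what bound from both kinds of allele, and how well S. kudriavzevii cDNA bound was not assessed here.

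Each value is the log2 ratio of 2 signals, on which 1 is a 2-fold and 2 a 4-fold difference. According to the labels VIN7 cDNA carried Cy3 and T73 cDNA Cy5 on all 3 arrays, with no dye swap, so a difference between dyes and one between strains cannot be told apart. The direction of the deposited ratio is not stated. It is likely T73 over hybrid, on the basis of the dyes and of the paper's calls for 2 ORFs given by systematic name. The text of the paper gives these calls at 12 °C (YIR007W up in VIN7, YMR210W down in W27), not for the 3 arrays described here. The sign was turned so that positive values are higher in VIN7. The ratio does not show how strongly an ORF was expressed, and levels of different ORFs were not compared. The table lists ORFs by systematic name only. In these names the letter after Y gives the chromosome, the next letter the left or right arm, the number the position counted from the centromere, and W or C the strand. The files did not pair the names with gene symbols or functions, so functions are given for the 2 ORFs that the paper annotates.

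The 3 arrays differed in spread. Replicate A had values for 6158 ORFs with a median log2 ratio of 0.02 and an SD over ORFs of 0.86. Replicate B had values for 5815 ORFs, a median of 0.21 and an SD of 1.59. Replicate C had values for 6157 ORFs, a median of 0.15 and an SD of 1.43. Replicate A was thus the narrowest array and lay closest to 0, and B lacked 363 ORFs where A and C lacked 20 and 21. Values past 2-fold in either direction made up 12.0% of replicate A, 40.4% of B and 45.5% of C. On replicate A 433 ORFs were past 2-fold up and 305 down, on B 1553 up and 795 down, and on C 1634 up and 1170 down. In the likely direction of the ratio each array thus had more ORFs higher than lower in VIN7, and the counts of replicate C change places if its sign is turned. A few ratios were extreme: 5 ORFs on replicate A and 10 on B lay below -15, and the lowest value on C was -11.31. The 2 control features of the arrays were not at 0 either. The 3XSSC spot read -0.81, -1.97 and -1.25 and the Arabidopsis spot -0.61, 0.28 and -1.50 on A, B and C.

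The arrays shared little of their pattern over ORFs, as the plot of the arrays in pairs shows. Between A and B, Pearson's r was 0.17 and Spearman's rho 0.25 over 5798 ORFs. Between A and C r was 0.06 and rho 0.09 over 6137 ORFs, and between B and C r was 0.06 and rho 0.08 over 5800 ORFs. These correlations run across ORFs of the same strains, and ORFs are not independent replicates. The sign of the ratio was the same for 58.2% of ORFs on A and B, for 54.7% on A and C and for 53.4% on B and C. Replicate C also stood apart from the rest of the series. Its r with the 6 arrays at 12 °C lay between -0.70 and 0.10 and was under -0.3 with 4 of them, and its r with the 3 W27 arrays at 28 °C lay between -0.26 and -0.06. For A the r with the arrays at 12 °C lay between 0.08 and 0.15 and for B between 0.05 and 0.21. By their labels all arrays carried the dyes in 1 orientation, yet r was under -0.3 between C and 4 of the 6 arrays at 12 °C. The direction of replicate C is thus not settled, and the results are also given without it and with its sign turned.

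**Figure D1:**
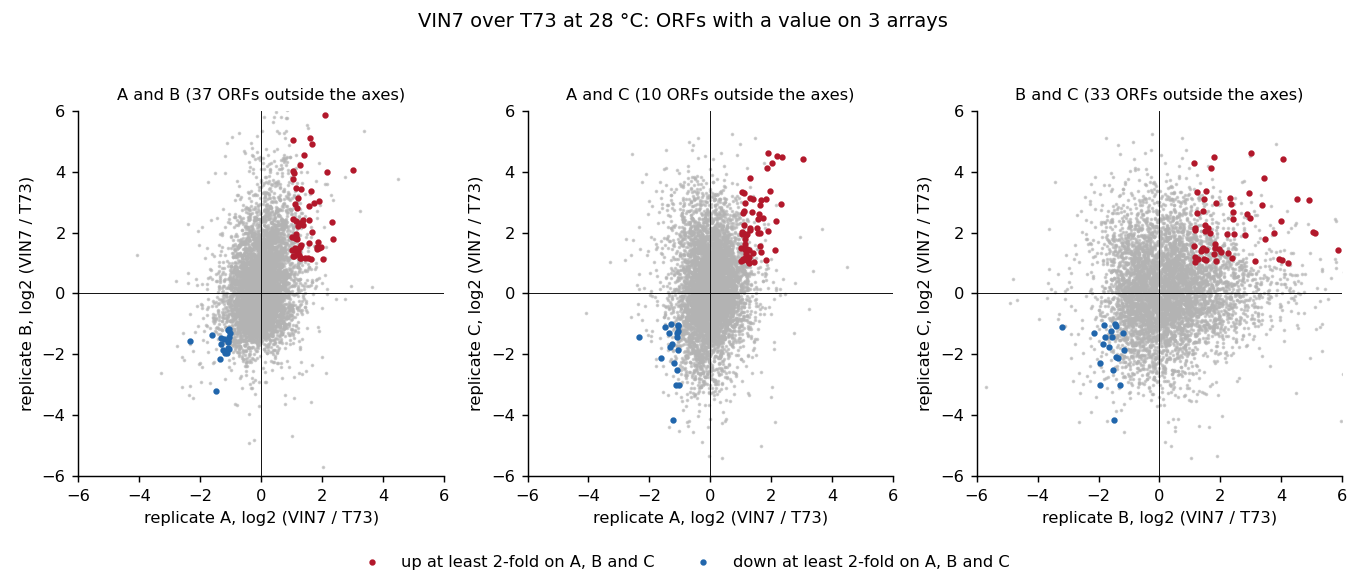
Log2 ratio of VIN7 over T73 at 28 °C on replicates A and B (left), A and C (middle) and B and C (right). Each grey point is 1 of 5783 ORFs with a value on 3 arrays, axes end at -6 and 6, and red and blue points mark the 60 ORFs past 2-fold up and the 19 past 2-fold down on all 3 arrays. The clouds are nearly round or stretched along the axis of B or C, and the marked ORFs lie at their corners.

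By the 2-fold rule of the methods (a value on at least 2 arrays, and a median log2 ratio of at least 1 or at most -1), 700 ORFs were up regulated in VIN7, 11.3% of those considered, and 338 were down regulated, 5.48%. Up regulated ORFs made up 67.4% of both together. The ORFs nearest to the upper threshold had medians of 1.0005 inside and 0.999 outside, and those nearest to the lower one -1.001 inside and -0.999 outside. Medians within 0.1 of the threshold were found for 293 ORFs on the upper side and 190 on the lower. With the sign of replicate C turned, 439 ORFs were up and 364 down regulated, so the up regulated share became 54.7%. Without replicate C the counts were 846 and 323, a share of 72.4%. Without replicate A they were 1288 and 594, and without B 745 and 539. After each array was recentred on its own median, 522 were up and 482 down regulated and the share was 52.0%. The split between up and down regulated ORFs thus moved with the centring of the arrays.

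Few of these ORFs were past 2-fold on every array. Of the 5783 ORFs with a value on all 3 arrays, 2131 were past 2-fold up on 1 array, 560 on 2 and 60 on 3, which is 1.04%. In the other direction 1541 were past 2-fold on 1 array, 286 on 2 and 19 on 3, which is 0.329%. A further way to see the spread is that 555 ORFs were past 2-fold up on 1 array and past 2-fold down on another. With the sign of C turned, 22 ORFs were past 2-fold up and 38 past 2-fold down on all 3, so the larger of both groups changed side. The sign alone was shared more widely, with 1149 ORFs above 0 and 767 below 0 on all 3 arrays.

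**Figure D2:**
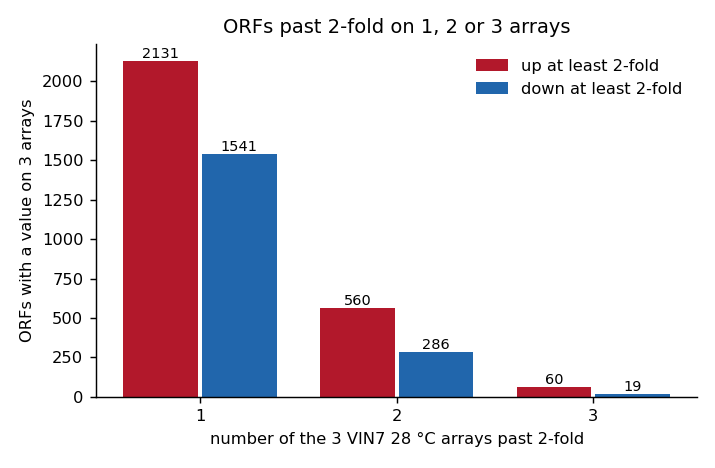
Number of ORFs, of the 5783 with a value on 3 arrays, that were past 2-fold up (red) or down (blue) in VIN7 on exactly 1, 2 or 3 of the arrays at 28 °C. The bars fall from 2131 and 1541 ORFs on 1 array to 60 and 19 on 3.

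ORFs chosen on 2 arrays were then read on the array that had no part in the choice. Of 185 ORFs past 2-fold up on both A and B, 122 were above 0 on C, which is 65.9% where 54.5% of all ORFs were above 0 on C. Their median on C was 0.58, beside 0.15 over all ORFs. The 87 ORFs past 2-fold down on both A and B did not stay low on C. Of these 33 were below 0 on C, which is 37.9% where 45.5% of all ORFs were, their median there was 0.52, and 38 were past 2-fold up. Replicate C thus kept the direction of the ORFs that A and B gave as higher in VIN7 more often than not, and turned that of the lower ones more often than not. The other pairs behaved differently. ORFs past 2-fold up on A and C were above 0 on B for 72.3% of 119 that had a value there (all ORFs 56.5%), and those past 2-fold down on A and C were below 0 on B for 64.9% of 77 (all ORFs 43.5%). ORFs past 2-fold up on B and C were above 0 on A for 69.3% of 436 (all ORFs 51.5%), and those down on B and C below 0 on A for 69.8% of 179 (all ORFs 48.3%). In 5 of the 6 readings the share was above that of all ORFs. The exception was the reading of C for ORFs down on A and B. The methods give 2 independent fermentations for 3 hybridizations, and T73 is in every ratio, so the third array may not be independent. ORFs of chromosomes I to IV also had medians above 0 on A, B and C (0.31, 0.92 and 0.31), and these readings were not split by chromosome.

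Tested ORF by ORF against 0 with limma, in 1 model over the 12 arrays with Benjamini-Hochberg adjustment, 1 of 6169 ORFs (0.0162%) differed from T73 in VIN7 at 28 °C. It was YAR074C, and it was higher in VIN7. An unadjusted p under 0.05 was found for 855 ORFs. The call of YAR074C was lost, leaving 0, when replicate B or C or any 1 of the W27 arrays at 28 °C was left out, when the sign of C was turned, when each array was recentred, when a trend of the ratios along the order of names was removed, or when only the 3 VIN7 arrays were fitted. Its log2 ratio was 2.41 with recentring, 2.01 with the trend removed and 2.54 without any 1 W27 array, beside 2.54 in the fit as given. With recentring and scaling 1 ORF was called, and it was not YAR074C but the next ORF in the order of names. With a term for the replicate letter 5 ORFs were called, all higher in VIN7. Without replicate A, the narrowest array, 26 of 5800 ORFs were called, 25 of them higher and 1 lower in VIN7. The labels call the arrays biological replicates, while the methods give 2 independent fermentations and 3 hybridizations, so the p-values may measure technical spread in part. T73 is in every ratio, and a deviation of T73 common to the 3 arrays enters these ratios without adding to their spread.

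YAR074C lies on the right arm of chromosome I. Its log2 ratio was 2.33 on replicate A, 2.35 on B and 2.93 on C, so VIN7 gave between 5.02 and 7.64 times the signal of T73. The mean was 2.54 ± 0.34 (SD, n = 3; SE of the fit 0.36, limma adjusted p 0.0398), and without C it was 2.34 (adjusted p 0.112). With the sign of C turned the mean was 0.58. The ORFs next to it in the order of names were high as well, at 1.89, 3.02 and 4.60 on A, B and C for the one before and 2.17, 6.64 and 4.52 for the one after. YAR074C was above 0 on all 12 arrays of the series. W27 at 28 °C gave 1.84, 1.16 and 0.75. At 12 °C the ratios were 1.46, 0.81 and 1.67 for VIN7 and 0.45, 0.69 and 1.00 for W27. At 28 °C the 3 values of VIN7 lay above those of W27 without overlap. YAR074C was named for its high ratios on these VIN7 arrays, which favours such a gap, and the share of all ORFs with one was not counted. The difference of 1.29 (SE 0.51) did not pass the test (limma adjusted p 0.547). PCR-amplified ORFs can also bind transcripts of similar ORFs, and whether YAR074C and its neighbours have such copies was not assessed here.

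By its weakest array the highest ORF was YGL256W, on the left arm of chromosome VII. The highest median, 4.52, belonged to the ORF after YAR074C. The ORFs of this and the next paragraph were chosen after their values were seen, as those whose weakest array was farthest from 0. YGL256W had a log2 ratio of 3.03 on A, 4.06 on B and 4.43 on C. Its weakest array thus gave 8.17 times and its strongest 21.5 times the signal of T73. The mean was 3.84 ± 0.72 (SD, n = 3), with an SE of the fit of 0.75 and a limma adjusted p of 0.109, so the ORF did not pass the test although its ratio was larger than that of YAR074C. The spread of an ORF in this model comes from all 12 arrays, and YGL256W varied in the other groups. In W27 at 28 °C it read -0.52, 0.79 and -1.64, on both sides of 0 and below all 3 values of VIN7. The choice by high VIN7 values favours such a gap. VIN7 minus W27 at 28 °C came to 4.29 (SE 1.05), which did not pass the test (limma adjusted p 0.477). In VIN7 at 12 °C it read -0.84, 0.16 and 3.49, so that only replicate C was high, and in W27 at 12 °C it read -0.40, -0.10 and -2.90. Without replicate C its mean at 28 °C was 3.54, and by its weaker value on A and B it ranked 3 of 5798 ORFs, where YAR074C ranked 7. The ORF before it in the order of names read 2.36, 1.78 and 4.47 on A, B and C, and the one after it -0.25, 1.08 and 2.15.

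At the other end, YDR420W on the right arm of chromosome IV had log2 ratios of -2.34, -1.56 and -1.43 on A, B and C. All 3 were past 2-fold, and its mean was -1.78 ± 0.49 (SD, n = 3; limma adjusted p 0.277). In W27 at 28 °C it ranged from -3.02 to 1.19, which spans the values of VIN7. YJL078C on the left arm of chromosome X read -9.96, -1.42 and -2.09. Replicate A gave a ratio far below the other arrays, and the mean of -4.49 ± 4.75 (SD, n = 3; limma adjusted p 0.220) had an SD as large as its size. In W27 at 28 °C YJL078C read -0.52, -2.53 and 1.49, and in VIN7 at 12 °C 1.13, -1.15 and -1.26. By its weakest array the lowest ORF reached -1.43 where the highest reached 3.03, and with the sign of replicate C turned, which puts other ORFs first, these limits were -2.23 and 1.44. Which side held the larger shared ratios thus depended on the direction of C.

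**Figure D3:**
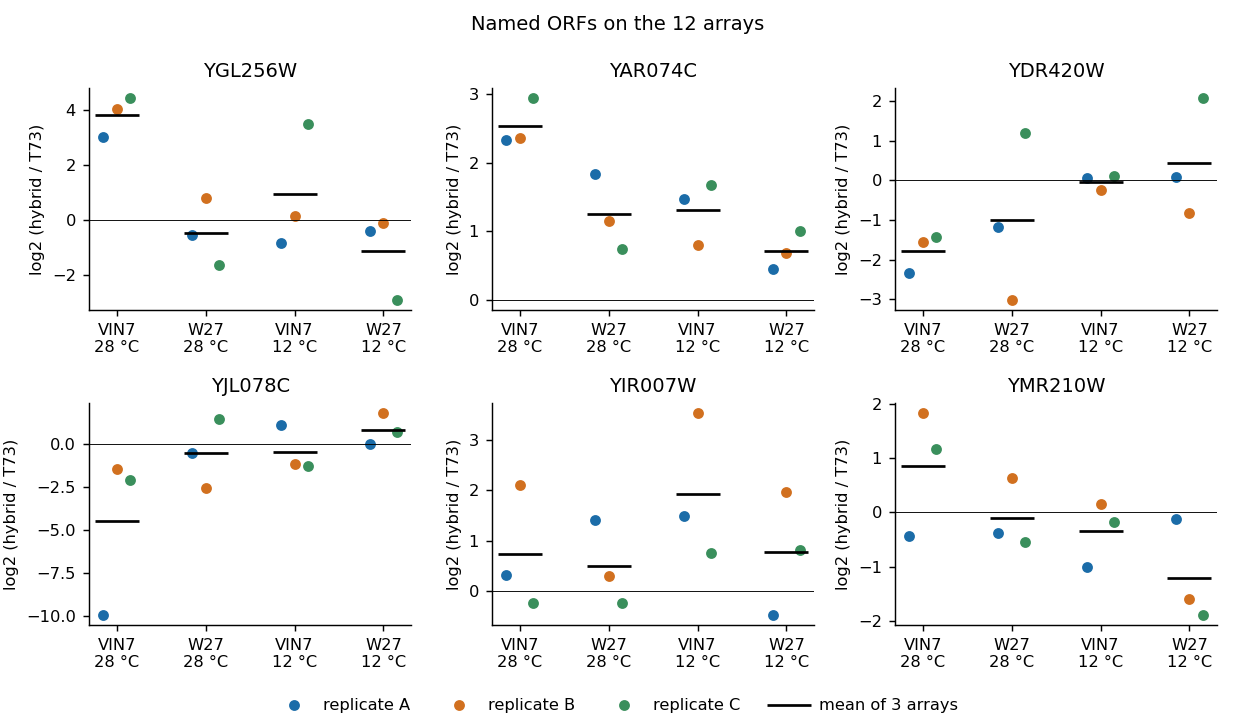
Log2 ratio of hybrid over T73 for 6 ORFs on the 12 arrays, by hybrid and temperature. Points are replicates A (blue), B (orange) and C (green), bars are means of 3 arrays, and each panel has its own scale. At 28 °C all 3 values of YGL256W and YAR074C are higher in VIN7 than in W27, and the values of YDR420W and YJL078C overlap those of W27. YGL256W and YAR074C were chosen for high VIN7 values at 28 °C, which favours such a gap.

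The paper annotates 2 ORFs of aroma release and ester synthesis by systematic name. YIR007W, given as a putative glycosidase, is on chromosome IX. Glycosidases release terpenes from the sugars that hold them in grape must. Its log2 ratio in VIN7 at 28 °C was 0.32 on A, 2.09 on B and -0.24 on C, with a mean of 0.72 ± 1.22 (SD, n = 3; limma adjusted p 0.603). The arrays thus did not share a sign, and only B was past 2-fold. In VIN7 at 12 °C the same ORF read 1.49, 3.52 and 0.76. T73 at 28 °C is the reference of the first set and T73 at 12 °C of the second, so the sets stand side by side and were not compared. In W27 at 28 °C it read 1.41, 0.29 and -0.23.

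YMR210W, given as a putative acyltransferase, is on chromosome XIII. Acyltransferases join ethanol to acyl groups to form ethyl esters, which smell of fruit. It read -0.43 on A, 1.82 on B and 1.17 on C, and passed the 2-fold rule by its median. In the text of the paper YMR210W is called only in W27 at 12 °C, as down regulated. Its mean of 0.85 ± 1.16 (SD, n = 3) did not pass the test (limma adjusted p 0.438), and with the sign of C turned the mean was 0.08. In W27 at 28 °C it read -0.39, 0.62 and -0.55, and the difference between the hybrids was 0.96 (SE 0.69, limma adjusted p 0.625).

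By chromosome, ORFs with high ratios were concentrated on chromosomes I to IV, as the plot of medians by chromosome shows. Of the 1523 ORFs considered on these chromosomes, 330 were up regulated by the 2-fold rule (21.7%) and 60 down regulated (3.94%). On chromosomes V to XVI 370 of 4646 were up (7.96%) and 278 down (5.98%). Chromosomes I to IV thus held 47.1% of the up regulated ORFs with 24.7% of the ORFs, and 54.4% with the sign of C turned. The up regulated shares were then 15.7% on I to IV and 4.30% on V to XVI, and without C 34.3% and 9.12%. The median log2 ratio on chromosomes I to IV was 0.31 on A, 0.92 on B and 0.31 on C, beside -0.07, 0.05 and 0.11 on V to XVI. Single chromosomes differed between arrays. Chromosome II had medians of 0.38, 1.23 and 0.48, chromosome IV of 0.16, 0.69 and 0.36, and chromosome I of 0.64, 0.92 and -0.84 on A, B and C. Chromosome I was therefore high on A and B and low on C, with 108 ORFs considered of which 21 were up and 14 down regulated. With the sign of C turned, 33.3% of them were up and 0.93% down regulated.

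**Figure D4:**
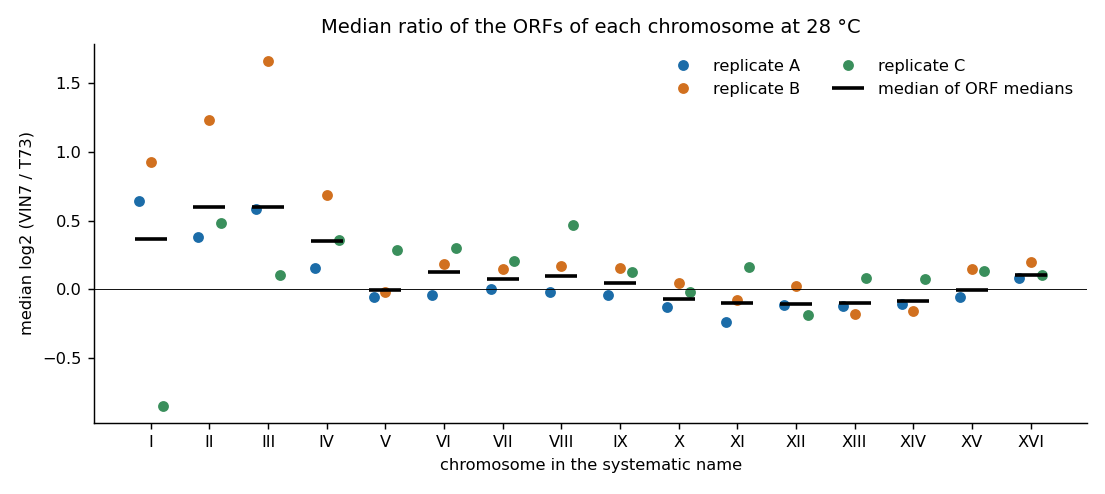
Median log2 ratio of VIN7 over T73 at 28 °C over the ORFs of each chromosome, on replicates A (blue), B (orange) and C (green), with a black bar for the median of the medians over arrays. Chromosomes I to IV lie above 0 on A and B, reaching 1.66 on B for chromosome III, and chromosome I reads -0.84 on C.

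On chromosome III, which in VIN7 has no S. kudriavzevii copy, the ORFs had a median of 0.58 on A, 1.66 on B and 0.11 on C. Of 205 ORFs considered, 52 were up regulated (25.4%) and 7 down regulated (3.41%), beside 27.9% and 2.38% of the 420 ORFs on chromosome II. The left arm had medians of 0.58, 1.41 and 0.00 and the right arm of 0.60, 1.81 and 0.18, so the same order of the arrays held on both arms. Without replicate C 52.2% of 136 ORFs were up regulated, beside 14.6% of all ORFs, and with its sign turned 24.9%, beside 7.12% of all ORFs. Among the ORFs of this chromosome 31 carry an X after the arm letter of the name, and their medians were 0.75, 1.38 and -0.30. Over all ORFs of chromosome III the median at 28 °C was 0.60 for VIN7 and 0.47 for W27. At 12 °C it was 0.72 for VIN7 and 0.53 for W27. T73 is the reference of all of these ratios, T73 at 28 °C for the first pair and T73 at 12 °C for the second. Medians at both temperatures thus stand side by side and were not compared. Chromosome VII, of which parts carry S. cerevisiae alleles alone, had medians of 0.00, 0.14 and 0.21 over 558 ORFs. On its right arm 45 of 296 ORFs were up regulated (15.2%) and 5.41% down, and on its left arm 19 of 262 (7.25%) were up and 7.63% down, beside 11.3% and 5.48% of all ORFs. With the sign of C turned 6.42% on the right and 4.96% on the left arm were up regulated, both below the 7.12% of all ORFs.

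The order of the names moved with these medians. In blocks of 250 ORFs in that order, the first 5 blocks, which end on chromosome IV, had medians between 0.25 and 0.58 on A and between 0.91 and 1.70 on B, and the next block dropped to -0.08 on A and 0.16 on B. The left arm of chromosome IV was higher than the right arm, at 0.32 and 0.96 on A and B against 0.08 and 0.58. The step after the first 5 blocks lies among names of the right arm of chromosome IV. Replicate C had no such step, and its blocks lay between -0.28 and 0.55. The share of ORFs with no value on B was also uneven, at 28.2% on chromosome I, 20.7% on II, 33.5% on III and 9.95% on IV, and no more than 3.66% on each other chromosome. In addition, B alternated along the names. Spearman's rho between an ORF and the next name was -0.07 on B, and between an ORF and the name after that 0.33, where A gave 0.18 and 0.22. The same chromosomes were shifted in the other groups, with medians over I to IV of 0.29 for W27 at 28 °C and, at 12 °C, of 0.29 for VIN7 and 0.21 for W27. Where the ORFs lie on the slide was not used here, and the part of the spot layout in these medians was not tested. With a running median along the names removed from each array, 406 ORFs were up and 392 down regulated. On chromosomes I to IV the up regulated share was then 7.94% and on V to XVI 6.13%.

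**Figure D5:**
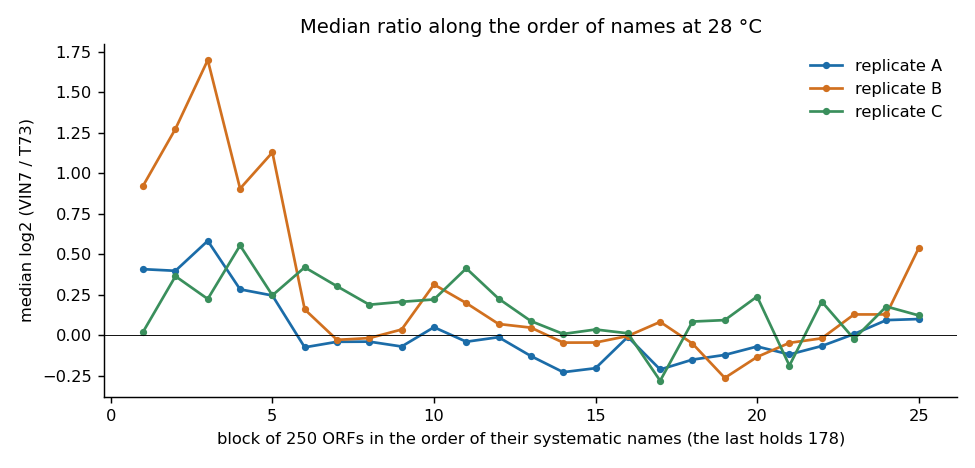
Median log2 ratio of VIN7 over T73 at 28 °C in successive blocks of 250 ORFs in the order of their systematic names, on replicates A (blue), B (orange) and C (green). Replicate B lies above 0.90 and A above 0.24 in the first 5 blocks, and both drop in the next one.

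The ends of the chromosome arms also had many high ratios. Of 160 ORFs among the outermost 5 name numbers of each of the 32 arms, 39 were up regulated (24.4%) and 14 down regulated (8.75%), and their median was 0.36. On chromosomes V to XVI alone, away from the shifted names, 20 of 120 such ORFs were up (16.7%) and 12 down regulated (10%). Of the 4526 other ORFs there 7.73% were up and 5.88% down regulated, so both shares were higher at the ends. Medians of these 120 ORFs were 0.28 on A, 0.16 on B and 0.20 on C, beside -0.07, 0.04 and 0.11 for the others there. All arrays thus had the ends above the other ORFs of these chromosomes. On B the ends were still below the median of all ORFs on that array, 0.21. Without replicate C 24.4% of 115 were up and 7.83% down regulated, beside 8.73% and 5.97% of the other ORFs of these chromosomes. With its sign turned the shares were 12.5% and 11.7% at the ends and 4.09% and 6.30% elsewhere. After the running median was removed, they were 16.7% and 8.33% at the ends and 5.86% and 5.17% elsewhere. The ends of V to XVI were also above the other ORFs there in the other groups. Their median was 0.15 beside 0.02 for W27 at 28 °C. At 12 °C it was 0.10 beside -0.09 for VIN7 and 0.02 beside -0.15 for W27. Subtelomeric genes often belong to families of similar sequence, and an ORF spot can then bind transcripts of several members, which was not assessed here. Among W names 11.3% were up regulated and among C names 11.4%, so the strand made little difference to this share.

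Of the 60 ORFs past 2-fold up on all 3 arrays, 27 lay on chromosomes I to IV and 33 on V to XVI. Chromosomes I to IV thus held 45% of this set and 21.6% of all ORFs with a value on 3 arrays. In the order of names 3 pairs of the 60 ORFs were neighbours. The median log2 ratio of this set was 1.73 in VIN7 at 28 °C, a value fixed by the choice. In the other groups, beside the median of all ORFs there, it was 0.41 (all 0.08) for W27 at 28 °C, and at 12 °C 0.13 (all 0.00) for VIN7 and -0.25 (all -0.06) for W27. In W27 at 28 °C the quartiles of the set were 0.04 and 0.81. T73 is also the reference of the W27 ratios, so these values may not be independent of the choice. All ORFs of chromosomes I to IV had a median of 0.29 in W27 at 28 °C. The 19 ORFs past 2-fold down on all 3 arrays had a median of -1.47 in VIN7 at 28 °C, and of -0.18 for W27 at that temperature, and at 12 °C of -0.54 for VIN7 and 0.09 for W27. Of these 19, 3 lay on chromosomes I to IV and 16 on V to XVI.

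The difference between VIN7 and W27 at 28 °C was tested for 6162 ORFs in the same model. No ORF passed (0% called, limma, smallest adjusted p 0.477), and 554 had an unadjusted p under 0.05. No ORF passed either with each array recentred, with a term for the replicate letter, with the sign of C turned (137 unadjusted), or without any 1 array of both groups (854 unadjusted without VIN7 replicate A, 278 without C). At this spread no difference from W27 at 28 °C was detected for single ORFs, which does not show that the hybrids were alike.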

How the data were processed

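The labels give 3 arrays for VIN7 at 28 °C among the 12 of the study. GenePix was used for scanning, with a global background subtraction, and Acuity for normalization. The authors then dropped spots flagged as not found and made manual print tip corrections. Deposited are log2 ratios, 1 per ORF and array, whose medians both steps can move. No spot intensities were used, so signal over background is unknown, and precision is limited by having 3 arrays. All columns of the table were matched to arrays (0 were not).

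Values were multiplied by -1 to give hybrid over T73. The 2-fold rule followed the methods (at least 2 arrays, median, 2-fold). Each ORF was tested with limma 3.58.1 under R 4.3.3, using lmFit and eBayes with 4 group means over 12 arrays, and a Benjamini-Hochberg adjusted p under 0.05 over all ORFs was a call. The fit and the counting were tested on simulated data. Python 3.11.15 was used for counts with numpy 2.4.6 and pandas 2.3.3, and matplotlib 3.10.9 for figures.

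Alternatives were the mean, a value on all 3 arrays, 1.5-fold and 4-fold thresholds, recentring with and without scaling, the sign of replicate C turned, a replicate term, a robust prior, a fit of the 3 arrays alone, and each array left out. The running median over 51 ORFs (odd and even positions apart) and the leaving out of W27 arrays for the VIN7 test were added after seeing the data. The arrays, the choices and the lists were made with earlier results of these data known. The planned description by gene function, with lists by gene symbol and promoter motifs, was not run, since identifiers were not paired with symbols. Named ORFs are the limma call, the 2 ORFs annotated in the paper and, as no symbols were paired, at most 2 high and 2 low ORFs, ranked by their weakest array, a rule set after seeing the data.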

Additional observations from a re-analysis of the deposited data

How the results depend on the processing

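The planned gene lists and promoter motifs gave no values, since identifiers were not paired with symbols here. For the 2-fold rule (700 ORFs up, 338 down), a 1.5-fold threshold gave 1481 and 976 and a 4-fold threshold 87 and 33. Turning the sign of replicate C gave 439 up, and removing the trend along the names 406 up. Leaving out 1 array gave between 745 and 1288 up and between 323 and 594 down. The mean, a value on all 3 arrays, recentring and scaling kept both counts within 1.5 times.

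For limma calls in VIN7 (1 ORF), recentring, turning C, fitting the 3 VIN7 arrays alone and removing the trend gave 0, a robust prior 2, and the replicate block 5. Leaving out 1 array gave between 0 and 26 calls, and 855 ORFs had an unadjusted p under 0.05. A value on all 3 arrays gave 1 call, YAR074C, and recentring with scaling 1 call, of the ORF next to it. For YAR074C the log2 ratio lay between 0.58 and 2.64 over 11 alternatives, with limma adjusted p between 0.0349 and 0.832. It was under the threshold in 2 of them, with the replicate block and without VIN7 replicate A. The fits with a value on all 3 arrays, a robust prior or the 3 arrays alone are not among the 11. No named ORF changed sign in the mean. Deviations of the VIN7 28 °C replicates A, B and C from their group mean correlated with those of the same letter at -0.03, -0.09 and 0.06 in W27 at 28 °C, at 0.31, 0.22 and 0.57 in VIN7 at 12 °C and at -0.32, 0.17 and -0.44 in W27 at 12 °C. All 3 letters were thus over 0.1 with VIN7 at 12 °C alone, no label says what they mark, and the fit as given has no term for them. The VIN7 minus W27 test gave 0 calls in every alternative run for it, the replicate block included.

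The direction of replicate C, the low correlation between arrays and the shift of names on chromosomes I to IV limit every count here. Without intensities, ratios of weak spots cannot be told from those of strong ones.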
